A study of Homo sapiens with 12 samples.

Results

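The 10 genes described here encode keratins, cadherins, matrix and adhesion proteins and a smooth muscle actin-binding protein that are commonly read as markers of epithelial state: KRT8, KRT18, KRT19, KRT15, CDH1, CDH2, FN1, CD44, ITGA6 and TAGLN. They were chosen by gene symbol, with earlier results of these data known, and all 10 were found among the 18668 genes listed. All 10 were also among the 17702 genes tested after a filter on low counts. Transcripts were measured by RNA sequencing in 22Rv1, a human castration-resistant prostate carcinoma cell line, labelled wild type. The cells were exposed for 24 h to a degrader, to an autophagy-activating ligand, to enzalutamide, a drug used against prostate cancer, or to vehicle. Each of the 4 groups had 3 biologically independent libraries of the same line. The labels gave no doses, so responses to different compounds were not compared at known matched doses.

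Keratins are the intermediate filament proteins of epithelial cells, and they assemble as obligate pairs of a type I and a type II chain. In the prostate, luminal secretory cells carry KRT8 and KRT18, and basal cells carry KRT5, KRT14 and KRT15. Cadherins hold neighbouring cells together through catenins. A switch to CDH2 and to matrix genes such as FN1, with loss of CDH1, is the textbook picture of epithelial-mesenchymal transition.

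Libraries held 58.3 to 77.2 M counted reads with the degrader, 55.5 to 71.8 with the ligand, 59.4 to 69.3 with enzalutamide and 60.2 to 74.8 with vehicle. All 6 luminal prostate markers checked, KRT8 and KRT18 among them, were listed. Their summed level was 2009 to 2122 CPM (counts per M reads, scaled by the trimmed mean of M values, TMM) with the degrader, 2447 to 2572 with the ligand, 2317 to 2442 with enzalutamide and 2525 to 2689 with vehicle. Without KRT8 and KRT18, which are among the 10 genes, the other 4 summed to 1194 to 1227 CPM with the degrader, 1337 to 1369 with the ligand, 1287 to 1354 with enzalutamide and 1308 to 1345 with vehicle. These 4 did not all move one way: EPCAM averaged 79.67 ± 1.94 CPM with the degrader and 82.21 ± 2.41 CPM with vehicle (SD, n = 3 each), HOXB13 was lower with the degrader, and 1 of the 4 had a higher mean with the degrader. The basal markers KRT5, KRT14 and TP63 were not listed, and neither was any of 3 endothelial markers. The table holds only genes with at least 1 read in every library. Of 8 fibroblast markers 6 were listed, COL1A2 and THY1 not among them, and their summed level was 18.6 to 19.9 CPM with the degrader, 19.1 to 20.6 with the ligand, 20.2 to 22.3 with enzalutamide and 20.4 to 21.7 with vehicle. Of 4 smooth muscle markers, ACTA2 and MYH11 were listed, at a summed 2.13 to 2.8 CPM with the degrader, 2.57 to 3.22 with the ligand, 2.96 to 3.28 with enzalutamide and 2.8 to 3.31 with vehicle. Of 3 leukocyte markers CD68 was listed, at 5.65 to 7.37 CPM with the degrader, 7.14 to 8.54 with the ligand, 6.92 to 8.95 with enzalutamide and 8.08 to 8.59 with vehicle. Of 4 neuroendocrine markers CHGA and SYP were listed, at a summed 74.1 to 85.3 CPM with the degrader, 75.9 to 83.9 with the ligand, 77.8 to 84.1 with enzalutamide and 71.3 to 82.1 with vehicle. The part of such cells in the results was not tested.

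Levels per transcript length, as FPKM, placed the genes far apart. With vehicle, KRT8 was at 382.7 ± 30.9 FPKM (SD, n = 3), above 99.3% of listed genes. KRT18 followed at 304.9 ± 8.2 FPKM, KRT19 at 154.4 ± 15.1 and CDH1 at 81.99 ± 1.17. CD44 was at 24.83 ± 0.778 FPKM and FN1 at 7.893 ± 0.364. The other 4 lay close together near the low end, with TAGLN at 1.091 ± 0.0987 FPKM, CDH2 at 1.077 ± 0.0273, ITGA6 at 0.6091 ± 0.0366 and KRT15 at 0.5377 ± 0.0168. TAGLN and CDH2 did not differ beyond their spread in vehicle cells. The ranges of ITGA6 (0.5719 to 0.6449 FPKM) and KRT15 (0.5191 to 0.552 FPKM) did not overlap there. The 22Rv1 cells thus carried luminal keratins and CDH1 at high level, and CDH2 at 1.31 ± 0.049% of the CDH1 level.

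**Figure D1:**
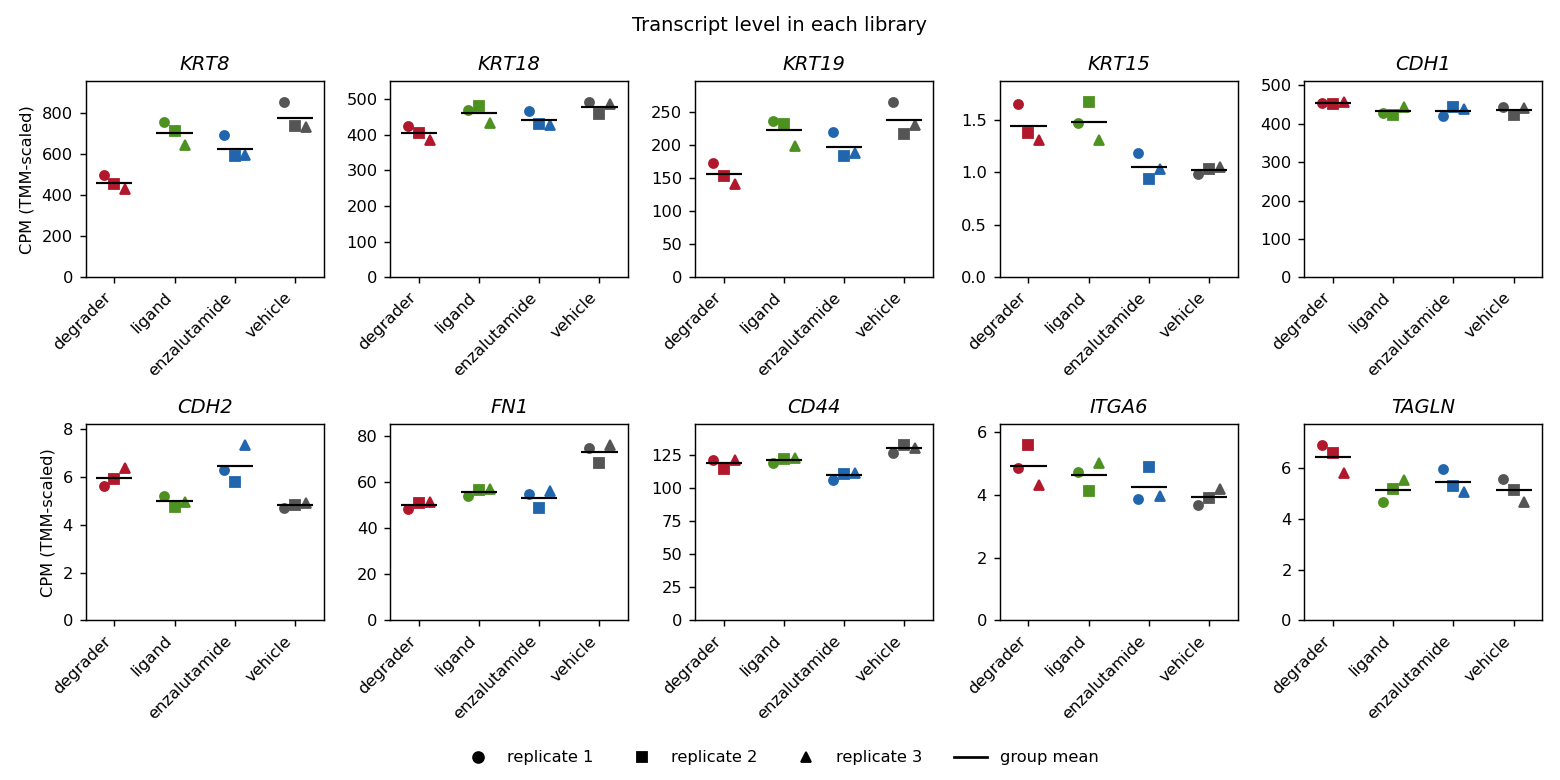
Level of each gene in every library, in TMM-scaled CPM on a linear axis from 0, for the degrader, ligand, enzalutamide and vehicle groups (3 libraries each). Symbols mark the replicate number and the black line is the group mean. KRT8 and KRT19 are lowest with the degrader, and FN1 is highest with vehicle, where the 3 libraries sit between 68.4 and 75.9 CPM.

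With the degrader, the 3 abundant keratins and FN1 were lower than with vehicle, CD44 was slightly lower, and the 4 genes of lowest level, KRT15, CDH2, ITGA6 and TAGLN, were higher. CDH1 did not pass the test. In all, 9 of the 10 genes were called at a Benjamini-Hochberg adjusted p under 0.05 in edgeR's quasi-likelihood test, 4 higher and 5 lower, where 32.7% of all genes tested were called (16.4% higher and 16.4% lower). None of the 10 had overlapping groups, a pattern shown by 45.2% of all genes. The median log2 fold change of the 10 was -0.04, against 0.01 over all genes. Fewer cells of a type and less RNA per cell cannot be told apart in such bulk samples.

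The type II keratin KRT8 moved most in size. It had 499, 453 and 430 CPM in degrader libraries, against 852, 736 and 732 CPM in vehicle libraries. Every degrader library lay below every vehicle library. KRT8 fell by 0.75 on the log2 scale (SE 0.08, adjusted p = 3.16e-06), to 0.596 times the vehicle level, and 95.1% of all genes had a smaller absolute change. KRT8 and KRT19 had their highest value in replicate 1 of each of the 4 groups, and FN1 had its highest in replicate 3 of each. The 9 listed pseudogenes of KRT8, which resemble it in sequence, held reads equal to 2.65 to 2.86% of the KRT8 count in degrader libraries and 1.43 to 1.85% in vehicle libraries.

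KRT18, the type I partner of KRT8, changed less. It had 423, 404 and 386 CPM with the degrader, against 491, 456 and 485 CPM with vehicle. The groups did not overlap, and KRT18 fell by 0.24 (SE 0.05, adjusted p = 0.00206). KRT19, a small type I keratin of simple epithelia, had 173, 153 and 141 CPM with the degrader, against 265, 217 and 230 CPM with vehicle. It fell by 0.61 (SE 0.1, adjusted p = 0.000259). The calls of KRT8, KRT18, KRT19 and FN1 in degrader against vehicle held in all 13 alternative settings. KRT8 and KRT18 overlap each other in the RefSeq annotation, and the strand setting of the counting was not given in the sources used here.

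The unequal falls changed the balance of the keratins. The ratio of KRT8 to KRT18 FPKM was 0.902, 0.853 and 0.846 with the degrader, 1.25, 1.15 and 1.14 with the ligand, 1.15, 1.06 and 1.07 with enzalutamide, and 1.34, 1.25 and 1.17 with vehicle. In FPKM, KRT18 exceeded KRT8 in each degrader library, and KRT8 exceeded KRT18 in each of the other 9 libraries. That order depends on the scaling for length. In CPM, KRT8 stayed above KRT18 in each degrader library, at 499, 453 and 430 against 423, 404 and 386. The ratio of KRT19 to KRT18 FPKM was 0.417, 0.385 and 0.371 with the degrader, against 0.55, 0.484 and 0.483 with vehicle. These ratios are descriptions without a test.

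**Figure D2:**
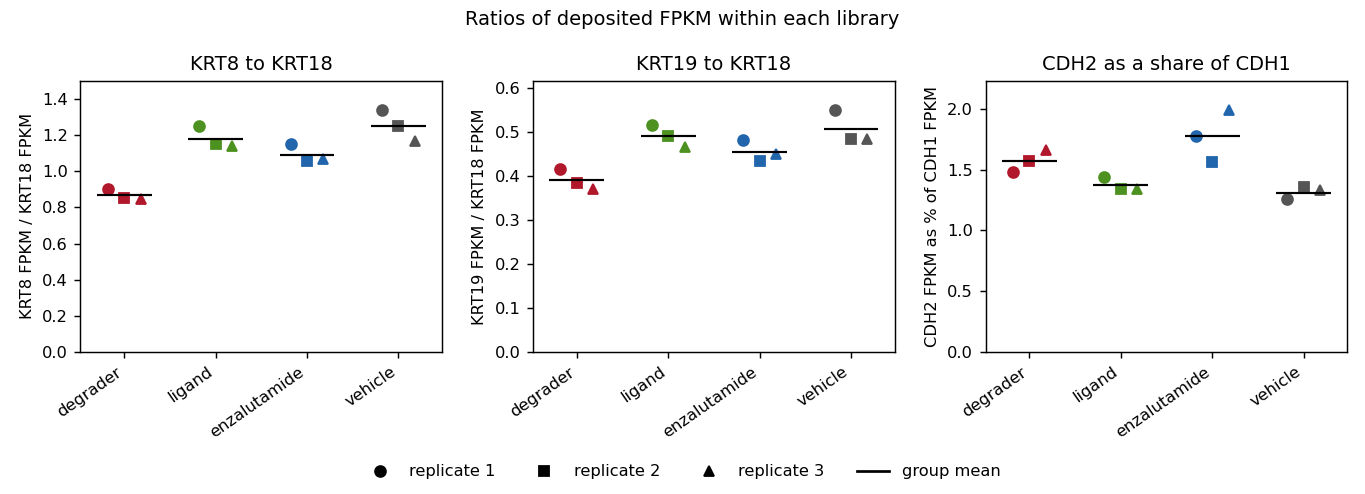
Ratio of KRT8 to KRT18 FPKM, ratio of KRT19 to KRT18 FPKM, and CDH2 FPKM as a percent of CDH1 FPKM in every library, on linear axes from 0. Symbols mark the replicate number and black lines the group means. The degrader libraries have the lowest KRT8 to KRT18 ratios, at 0.846 to 0.902, and the enzalutamide libraries the highest mean share of CDH2, at 1.78%.

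KRT15, a type I keratin of basal cells, had 1.65, 1.38 and 1.31 CPM in degrader libraries, against 0.989, 1.04 and 1.05 CPM in vehicle libraries. Counts behind these levels were 77 to 127 reads with the degrader and 63 to 73 with vehicle. The groups did not overlap, and KRT15 rose by 0.50 on the log2 scale (SE 0.16, adjusted p = 0.025). The call was lost without degrader replicate 1 (adjusted p = 0.117) and without vehicle replicate 1 or 2 (0.076 and 0.0565). Even after the rise, KRT15 stood at 0.7607 ± 0.0968 FPKM (SD, n = 3) in degrader cells, the lowest mean of the 10 genes.

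CDH1 encodes E-cadherin, the main adhesion molecule of epithelial junctions. It had 454, 450 and 457 CPM with the degrader, against 444, 423 and 442 CPM with vehicle. The groups did not overlap, yet the difference was small, at 0.06 on the log2 scale (95% confidence interval -0.03 to 0.14, adjusted p = 0.318). CDH2 encodes N-cadherin, the cadherin of neural and mesenchymal cells. It had 5.6, 5.89 and 6.34 CPM with the degrader, against 4.67, 4.81 and 4.91 CPM with vehicle. CDH2 rose by 0.31 (SE 0.1, adjusted p = 0.022), with no overlap of the groups. This call was lost without degrader replicate 2 or 3 (adjusted p = 0.0519 and 0.0879) and without vehicle replicate 1 or 2 (0.0675 and 0.0557). CDH2 amounted to 1.48, 1.57 and 1.66% of the CDH1 FPKM in degrader libraries, against 1.26, 1.36 and 1.33% in vehicle libraries.

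FN1 encodes fibronectin, an extracellular matrix glycoprotein bound by integrins. It had 48.2, 51.1 and 51.4 CPM with the degrader, against 74.6, 68.4 and 75.9 CPM with vehicle. All degrader libraries lay well below all vehicle libraries, and FN1 fell by 0.54 (SE 0.06, adjusted p = 3.4e-06). ATIC, a purine synthesis gene that overlaps FN1 in the RefSeq annotation, had a log2 fold change of -0.21 (adjusted p = 0.000787) in the same comparison.

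CD44, the main hyaluronan receptor, had 121, 115 and 121 CPM with the degrader, against 127, 133 and 131 CPM with vehicle. It fell by 0.13 (SE 0.04, adjusted p = 0.0293), and the groups did not overlap. The call was lost without degrader replicate 2 (0.147) and without vehicle replicate 2 or 3 (adjusted p = 0.118 and 0.0756). ITGA6, the laminin-binding integrin alpha 6 subunit, had 4.87, 5.58 and 4.32 CPM with the degrader, against 3.67, 3.9 and 4.19 CPM with vehicle. ITGA6 rose by 0.33 (SE 0.12, adjusted p = 0.0444), although the lowest degrader value was close to the highest vehicle value. Its call was lost without degrader replicate 1 or 2 (adjusted p = 0.0766 and 0.206), without vehicle replicate 1 or 2 (0.138 and 0.0984) and with no filter on low counts (0.0503).

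TAGLN encodes transgelin, an actin-binding protein of smooth muscle and mesenchymal cells. It had 6.91, 6.6 and 5.82 CPM with the degrader, against 5.59, 5.16 and 4.69 CPM with vehicle. The groups were separated by a narrow margin, and TAGLN rose by 0.32 (SE 0.1, adjusted p = 0.024). The call was lost without degrader replicate 1 or 2 (0.0953 and 0.0707) and without vehicle replicate 2 or 3 (adjusted p = 0.058 and 0.0959). TAGLN overlaps PCSK7 in the RefSeq annotation, and PCSK7 had a log2 fold change of -0.11 (adjusted p = 0.176).

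With enzalutamide, 3 of the 10 genes were called, where 1.44% of all genes were: CDH2 was higher, and FN1 and CD44 were lower. Over all genes, 0.35% were called higher and 1.09% lower. The groups of these 3 and of KRT8 did not overlap, a pattern shown by 17.1% of all genes. The vehicle libraries are the same as those used for the other compounds, so the comparisons against vehicle share them. The median log2 fold change of the 10 was -0.06, against 0 over all genes.

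The 250 bases upstream of the RefSeq start (build GRCh38.p14) are printed for these 3 genes, since they were the ones called with enzalutamide. RefSeq promoter windows were found for 5 of the 10 genes, and CDH2 had 2, of which the upstream one is shown. Of 6 motifs searched on both strands, capitals mark the 4 that had a match in these windows: the cyclic AMP response element TGACGTCA, the CCAAT box, the GC box GGGCGG and TATAA. The E-box CANNTG and the AP-1 motif TGANTCA had 0 matches in the 3 windows. The other CDH2 window, which is not printed, held 1 E-box, 1 AP-1 motif, 1 CCAAT box and 2 TATAA matches. The FN1 window lies at chr2:215436069-215436318 on the minus strand, the CD44 window at chr11:35138921-35139170 on the plus strand and the CDH2 window at chr18:28177131-28177380 on the minus strand.
FN1: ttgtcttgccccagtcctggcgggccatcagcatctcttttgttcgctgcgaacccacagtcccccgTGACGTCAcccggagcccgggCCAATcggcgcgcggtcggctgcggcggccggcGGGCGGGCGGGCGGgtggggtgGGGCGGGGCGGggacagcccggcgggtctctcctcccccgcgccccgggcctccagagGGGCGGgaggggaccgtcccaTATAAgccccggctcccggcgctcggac
CD44: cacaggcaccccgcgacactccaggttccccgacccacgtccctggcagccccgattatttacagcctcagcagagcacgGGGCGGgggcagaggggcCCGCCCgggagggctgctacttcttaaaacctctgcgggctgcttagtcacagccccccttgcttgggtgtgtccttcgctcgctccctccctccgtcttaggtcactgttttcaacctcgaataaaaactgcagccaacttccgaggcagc
CDH2: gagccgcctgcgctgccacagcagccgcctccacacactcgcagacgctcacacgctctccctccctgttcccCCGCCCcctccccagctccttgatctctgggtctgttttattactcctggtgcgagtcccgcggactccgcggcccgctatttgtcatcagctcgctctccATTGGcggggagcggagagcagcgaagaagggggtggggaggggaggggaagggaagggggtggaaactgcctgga
The FN1 window held 1 response element, 1 CCAAT box, 6 GC boxes, some of which overlap each other, and 1 TATAA. The CD44 window held 2 GC boxes, and the CDH2 window held 1 CCAAT box and 1 GC box, both on the opposite strand. Of 35116 RefSeq windows, 1.65% held the response element, 32.0% a CCAAT box, 42.6% a GC box, 18.9% a TATAA, 61.8% an E-box and 6.57% an AP-1 motif. GC content was 76.4% in the FN1 window, 62.4% in that of CD44 and 66.0% in that of CDH2, against a median of 58.0%. A match describes these letters and does not show binding.

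CDH2 had 6.26, 5.77 and 7.31 CPM in enzalutamide libraries, against 4.67, 4.81 and 4.91 CPM in vehicle libraries. Each enzalutamide library exceeded each vehicle library, and CDH2 rose by 0.43 (SE 0.1, adjusted p = 0.0327). The call was lost when any 1 library but enzalutamide replicate 2 was left out, with adjusted p = 0.0833 and 0.24 without enzalutamide replicates 1 and 3, and 0.123, 0.123 and 0.0899 without vehicle replicates 1, 2 and 3. It was also lost with only the 2 groups in the fit (0.0592). CDH2 made up 1.78, 1.56 and 1.99% of the CDH1 FPKM with enzalutamide. CDH1 itself had 421, 443 and 439 CPM with enzalutamide, and its difference from vehicle was -0.01 on the log2 scale (interval -0.09 to 0.08, adjusted p = 0.968).

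FN1 had 54.9, 48.9 and 56 CPM with enzalutamide, against 74.6, 68.4 and 75.9 CPM with vehicle. The groups lay far apart, and FN1 fell by 0.45 (SE 0.06, adjusted p = 0.000246). CD44 had 106, 111 and 112 CPM with enzalutamide, against 127, 133 and 131 CPM with vehicle, and fell by 0.24 (SE 0.04, adjusted p = 0.00406). Both calls held in all 13 alternative settings. ATIC had a log2 fold change of -0.02 with enzalutamide.

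No keratin passed the test with enzalutamide in the fit with group as its only term. KRT8 had 690, 592 and 593 CPM with enzalutamide, against 852, 736 and 732 CPM with vehicle, with no overlap. Its log2 fold change was -0.31 (95% confidence interval -0.47 to -0.14, adjusted p = 0.075). KRT8 was called in DESeq2 (adjusted p = 0.0111) and without enzalutamide replicate 1 (0.0203), and the authors' deposited table listed it at a signed fold of -1.24 with an adjusted p of 0.0137. KRT19 had 220, 184 and 188 CPM with enzalutamide, overlapping vehicle, and a log2 fold change of -0.27 (-0.47 to -0.06, adjusted p = 0.314). For KRT18 the log2 fold change was -0.12 (adjusted p = 0.475). KRT15, ITGA6 and TAGLN had log2 fold changes of 0.04, 0.11 and 0.08, with adjusted p from 0.813 to 0.962.

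With the ligand, FN1 alone of the 10 was called, where 0.237% of all genes were (0.203% higher and 0.0339% lower). FN1 had 53.7, 56.6 and 57.1 CPM in ligand libraries, against 74.6, 68.4 and 75.9 CPM in vehicle libraries. The groups did not overlap, and FN1 fell by 0.39 (SE 0.06, adjusted p = 0.00543). The call was lost without ligand replicate 1 (adjusted p = 0.0681) and without vehicle replicate 3 (0.0523). Groups also did not overlap for KRT15 and CD44, and 11.3% of all genes showed such a pattern.

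KRT15 had 1.47, 1.67 and 1.31 CPM with the ligand, against 0.989, 1.04 and 1.05 CPM with vehicle. Its log2 fold change was 0.54, with a 95% confidence interval of 0.19 to 0.88 and an adjusted p of 0.347. CD44 had 119, 122 and 123 CPM with the ligand and a log2 fold change of -0.1 (-0.19 to -0.01, adjusted p = 0.618). KRT8 had 753, 711 and 645 CPM with the ligand and a log2 fold change of -0.14 (-0.3 to 0.03, adjusted p = 0.773). The log2 fold changes of KRT18, KRT19, CDH1, CDH2 and TAGLN lay between -0.1 and 0.05, and that of ITGA6 was 0.24 (adjusted p = 0.722).

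**Figure D3:**
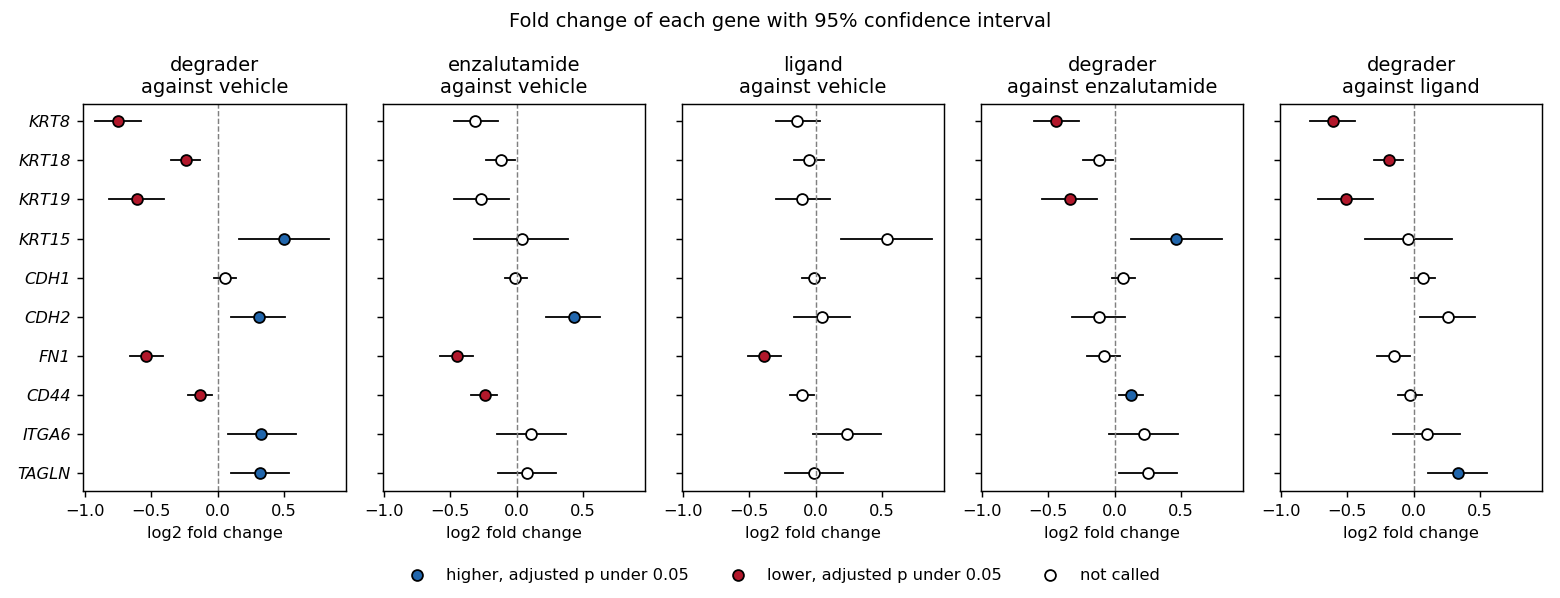
Log2 fold change of each gene with its 95% confidence interval in 5 comparisons, from edgeR's quasi-likelihood fit to all 12 libraries. Filled points were called at an adjusted p under 0.05, blue for higher and red for lower in the first-named group. FN1 is called lower in each of the comparisons with vehicle, while KRT8 is called in the 3 that involve the degrader.

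The degrader was also set against enzalutamide and against the ligand directly. Against enzalutamide, 4 of the 10 genes were called, 2 higher and 2 lower, where 32.3% of all genes were (16.3% higher and 16.1% lower), and 6 had groups that did not overlap, against 46.4% of all genes. KRT8 fell by 0.44 (SE 0.08, adjusted p = 0.000492), with 499, 453 and 430 CPM with the degrader, against 690, 592 and 593 CPM with enzalutamide. KRT19 had 173, 153 and 141 CPM with the degrader, against 220, 184 and 188 CPM with enzalutamide, and fell by 0.34 (SE 0.1, adjusted p = 0.0146). KRT8 held in all 13 alternative settings, and the KRT19 call was lost without degrader replicate 3 (adjusted p = 0.06) and without enzalutamide replicate 1 (0.0661).

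KRT15 and CD44 were higher with the degrader than with enzalutamide. KRT15 had 1.65, 1.38 and 1.31 CPM with the degrader, against 1.18, 0.937 and 1.03 CPM with enzalutamide, and rose by 0.46 (SE 0.16, adjusted p = 0.0363). Its call was lost without degrader replicate 1 or 2 (adjusted p = 0.153 and 0.057), without enzalutamide replicate 2 or 3 (0.124 and 0.0883), in DESeq2 (0.0549) and with only the 2 groups in the fit (0.0575). CD44 had 121, 115 and 121 CPM with the degrader, against 106, 111 and 112 CPM with enzalutamide, and rose by 0.12 (SE 0.04, adjusted p = 0.0479). That call was lost without degrader replicate 1 or 3 (0.135 and 0.144), without enzalutamide replicate 1, 2 or 3 (0.173, 0.0787 and 0.064), with DESeq2 size factors (0.0606), with no filter (0.0535) and with only the 2 groups in the fit (0.0702).

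FN1 and CDH2 were not called between the degrader and enzalutamide. The log2 fold change of FN1 was -0.08 (95% confidence interval -0.21 to 0.04, adjusted p = 0.302), and that of CDH2 was -0.12 (-0.32 to 0.08, adjusted p = 0.361). For KRT18 it was -0.12 (-0.24 to -0.01, adjusted p = 0.082), and for TAGLN it was 0.25 (0.03 to 0.47, adjusted p = 0.0807). TAGLN was called without degrader replicate 3 (adjusted p = 0.049) and without enzalutamide replicate 1 (0.0498).

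Against the ligand, 4 of the 10 genes were called, 1 higher and 3 lower, where 28.5% of all genes were (14.3% higher and 14.2% lower), and 7 had groups that did not overlap, against 38.7% of all genes. KRT8 had 499, 453 and 430 CPM with the degrader, against 753, 711 and 645 CPM with the ligand, and fell by 0.61 (SE 0.08, adjusted p = 3.61e-05). KRT19 fell by 0.51 (SE 0.1, adjusted p = 0.00129), with 173, 153 and 141 CPM with the degrader, against 237, 231 and 198 CPM with the ligand. Both calls held in all 13 alternative settings. KRT18 had 423, 404 and 386 CPM with the degrader, against 468, 480 and 434 CPM with the ligand, and fell by 0.19 (SE 0.05, adjusted p = 0.0131). Its call was lost without degrader replicate 3 (adjusted p = 0.0569) and without ligand replicate 2 (0.0567).

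TAGLN had 6.91, 6.6 and 5.82 CPM with the degrader, against 4.66, 5.18 and 5.55 CPM with the ligand, and rose by 0.33 (SE 0.1, adjusted p = 0.0239). The call was lost without degrader replicate 1 or 2 (0.092 and 0.0758) and without ligand replicate 1 or 2 (adjusted p = 0.111 and 0.0517). The difference of CDH2 was 0.26 on the log2 scale (95% interval 0.05 to 0.46, adjusted p = 0.0565). That of FN1 was -0.15 (-0.28 to -0.03, adjusted p = 0.0672), and it was called in DESeq2 (adjusted p = 0.0414). KRT15 had 1.65, 1.38 and 1.31 CPM with the degrader, against 1.47, 1.67 and 1.31 CPM with the ligand, which overlap.

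Genes whose levels ran most like those of KRT8 and FN1 were ranked over the 12 libraries among 11956 genes, by Pearson correlation of log2 CPM. For KRT8 the nearest were FLJ20021 (r = 0.987), KRT19 (0.986), the chaperone gene CLU (0.979), the kallikrein gene KLK11 (0.976) and ADIRF (0.973). For FN1 they were DGKA, a diacylglycerol kinase gene (r = 0.886), JADE3 (0.879), TUBD1 (0.875), ARHGAP6 (0.873) and MYO1A (0.87). These values are descriptions over libraries that share treatments and replicate numbers.

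Related genes were read from 18 lists of 306 symbols, chosen with earlier results of these data known. Of these symbols, 228 were listed and tested. With the degrader, 81 of the 228 were called (35.5%), 31 higher and 50 lower, against 32.7% of all genes, and their median log2 fold change was -0.05. With enzalutamide 9 were called (3.95%), against 1.44% of all genes. With the ligand edgeR called 0, against 0.237% of all genes, a share at which few or no calls among 228 genes say nothing about the lists, and 28 had an unadjusted p under 0.05. DESeq2 called 2 of the 228 and limma-voom 0. The list counts below are for the degrader against vehicle, where 16.4% of all genes were called higher and 16.4% lower, with a median of 0.01.

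Of 4 other keratins tested, 1 rose and 2 fell with the degrader. KRT7, a type II keratin of simple epithelia, had 22, 20.4 and 18.6 CPM with the degrader, against 38.2, 33 and 31.6 CPM with vehicle, and fell by 0.75 (SE 0.09, adjusted p = 1.01e-05). KRT80 fell by 0.79 (adjusted p = 0.0407) and KRT10 rose by 0.31 (0.0144). The level of KRT80 was low, at 0.4513 ± 0.185 CPM with the degrader and 0.8025 ± 0.187 CPM with vehicle (SD, n = 3 each). The KRT80 call was lost without degrader replicate 3 (0.15), without vehicle replicate 3 (0.165) and with only the 2 groups in the fit (0.0703), and the KRT10 call without degrader replicate 1 (0.0651) and without vehicle replicate 3 (0.0712). Of 14 desmosome and keratin linker genes edgeR called 0, with 2 at an unadjusted p under 0.05, 1 in DESeq2 and 0 in limma-voom. Of 6 basal markers tested edgeR called 0, with 0 at an unadjusted p under 0.05 and 0 by either other tool.

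Among 16 adherens junction genes, 4 rose and 6 fell with the degrader (62.5% called, against 32.7% of all genes). CTNNB1, the beta-catenin that links cadherins to the cytoskeleton, averaged 341.8 ± 2.43 CPM with the degrader and 388.6 ± 8.01 CPM with vehicle (SD, n = 3 each), and fell by 0.18 (edgeR adjusted p = 0.00126). CTNND1, the p120 catenin gene, also fell by 0.18 (0.00179), while AFDN, the afadin gene, rose by 0.26 (0.000721). Among 20 other cadherins, 4 rose and 4 fell (40% called). CDH12 rose by 0.73 (5.87e-06) and FAT4 by 0.52 (8.14e-05), and CDH23 fell by 0.47 (0.00013). Among 20 tight junction genes, of which 30% were called, 3 rose, with CLDN7 up by 0.25 (0.00268), and 3 fell, with CLDN1 down by 1.04 on the log2 scale at a low level of 0.9463 ± 0.293 CPM with the degrader and 1.927 ± 0.319 CPM with vehicle (0.00102).

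Of 20 epithelial transcription and splicing factors, 5 rose and 7 fell with the degrader (60% called, against 32.7% of all genes). ELF3, an epithelial ETS factor, averaged 135 ± 10.7 CPM with the degrader and 78.64 ± 8.06 CPM with vehicle (SD, n = 3 each), and rose by 0.78 (edgeR adjusted p = 1.14e-06). ESRP1, the epithelial splicing regulator, rose by 0.38 (4.84e-05). HOXB13, the prostate homeobox factor, fell by 0.32 (4.51e-05). Of 11 transcription factors of mesenchymal transition, TWIST1 was the 1 called (9.09% of the list) and rose by 0.29 (0.00348). Of 15 mesenchymal and stromal markers, 13.3% were called: 1 rose and 1 fell, the matrix gene TNC by 0.36 (0.000112).

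Of 16 smooth muscle and actin-binding genes, 1 rose and 6 fell with the degrader, with a median log2 fold change of -0.25, against 0.01 over all genes. The share called was 43.8%, against 32.7% of all genes, and 37.5% were lower, against 16.4%. TAGLN2, the widely expressed relative of TAGLN, averaged 526.3 ± 10.7 CPM with the degrader and 776.6 ± 30.8 CPM with vehicle (SD, n = 3 each), and fell by 0.56 (edgeR adjusted p = 9.92e-08). MYL9 fell by 0.82 (0.000471) and MYLK by 0.54 (0.000648), while CNN3 rose by 0.28 (0.00104). Of 21 integrin subunits, 2 rose and 4 fell (28.6% called). ITGA3, like ITGA6 a laminin-binding alpha subunit, rose by 0.32 (0.00019), and ITGA4 fell by 0.64 (0.000235). Of 18 laminin and hemidesmosome genes, of which 22.2% were called, 1 rose and 3 fell, with LAMC1 down by 0.27 on the log2 scale (0.000117).

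Of 13 hyaluronan and CD44 partner genes, 3 rose and 6 fell with the degrader (69.2% called, against 32.7% of all genes). HMMR, a hyaluronan receptor also known for its role at the mitotic spindle, averaged 73.86 ± 3.8 CPM with the degrader and 135.8 ± 2.72 CPM with vehicle (SD, n = 3 each), and fell by 0.88 (edgeR adjusted p = 2.84e-08). HAS3, a hyaluronan synthase gene, fell by 0.59 (0.002). Of 17 neuroendocrine and plasticity genes, 4 fell and none rose, a share of 23.5%. Over all genes, 32.7% were called in either direction and 16.4% were called lower. The 4 that fell were the mitotic kinase gene AURKA, by 0.81 (3.67e-09), SCGN by 0.85 (0.000158), EZH2 by 0.28 (0.000275) and ENO2 by 0.31 (0.000321). Of 21 genes of the TGF-beta pathway, 5 rose and 3 fell (38.1% called), with ID2 up by 0.47 (3.64e-06) and TGFB3 down by 0.61 on the log2 scale (9.59e-06). Of 6 fibroblast markers edgeR called 0, with 1 at an unadjusted p under 0.05, 0 in DESeq2 and 0 in limma-voom, and of 4 leukocyte markers 1 was called, CD68, which fell by 0.31 (0.0421). The CD68 call was lost without degrader replicate 2 (0.209) and without vehicle replicate 1, 2 or 3 (0.0622, 0.119 and 0.0775).

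The 9 list genes called with enzalutamide included BAMBI, a pseudoreceptor of the TGF-beta family, which averaged 7.718 ± 0.238 CPM with enzalutamide and 4.101 ± 0.228 CPM with vehicle (SD, n = 3 each) and rose by 0.91 (edgeR adjusted p = 8.63e-06). PMEPA1, a TGF-beta pathway inhibitor, fell by 0.63 (1.13e-07), and the tropomyosin gene TPM1 fell by 0.42 (2.06e-05). CNN3 fell by 0.36 (0.00153) and GATA2 rose by 0.33 (0.00373). In degrader against vehicle BAMBI also rose, by 0.57 (0.000127), and TPM1 also fell, by 0.35 (1.23e-05). There CNN3 rose and GATA2 fell by 0.28 each on the log2 scale (0.00104 and 0.00105), opposite to enzalutamide. PMEPA1 was not called with the degrader, at a log2 fold change of 0.09 (0.114). Among the other list genes called with enzalutamide, CTNND2 and ELF3 were called higher and CBLL1 lower with both compounds. KLF4 was called lower with enzalutamide and higher with the degrader. The enzalutamide calls of CTNND2, ELF3, CBLL1 and KLF4 were each lost when certain single libraries were left out. Without enzalutamide replicate 1 the edgeR adjusted p was 0.138, 0.145, 0.0982 and 0.0641 in that order. Without vehicle replicate 2 it was 0.11, 0.179, 0.0663 and 0.116. The KLF4 call was also lost in limma-voom (0.0516).

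**Figure D4:**
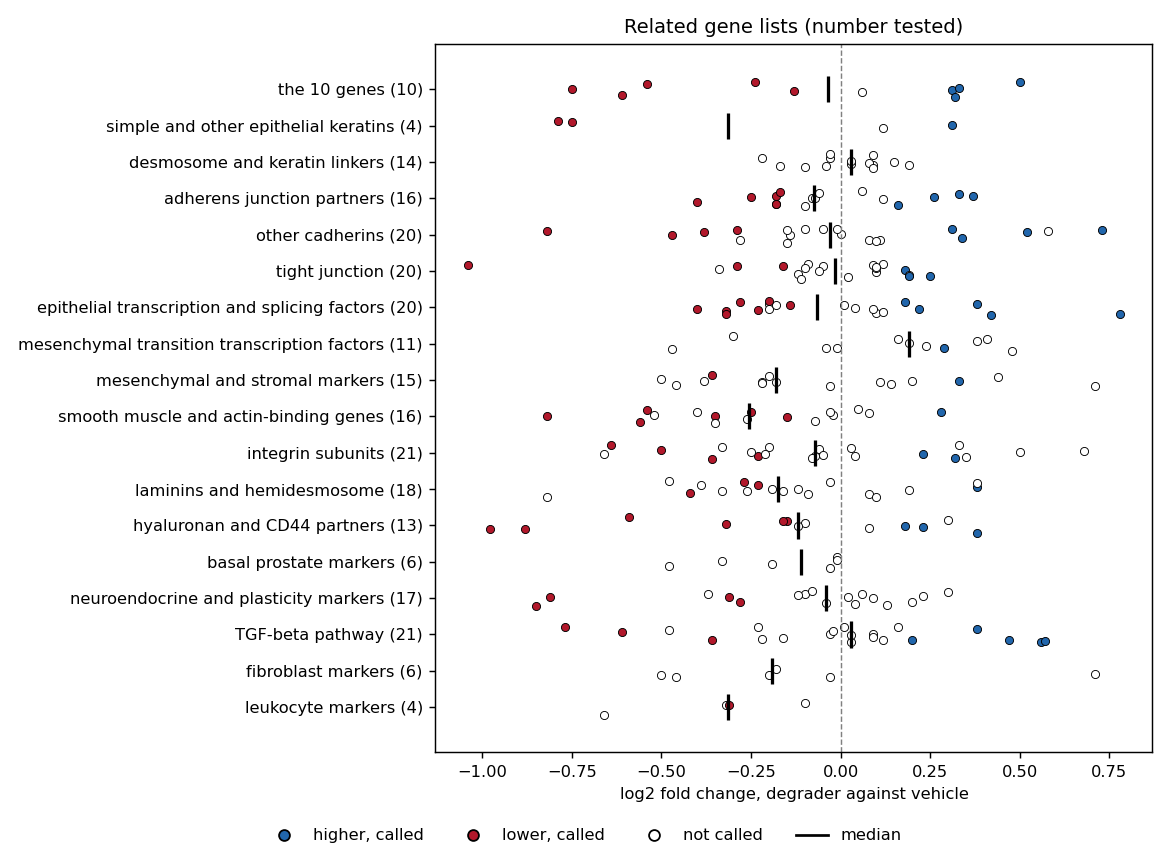
Log2 fold change of the degrader against vehicle for the 10 genes and for each related list, with the number of genes tested in brackets. Each point is a gene, filled where called (blue higher, red lower), with vertical jitter, and the black bar is the list median. The smooth muscle and actin-binding list has a median of -0.25, and the desmosome list has no called gene.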

How the data were processed

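Trizol RNA of 22Rv1 cells went into libraries made with a stranded mRNA kit, per the labels' protocols. Reads were processed with HISAT2 and StringTie on GRCh37, per the submitters' processing notes, and versions were not given in the sources used here. The deposited table gave whole-number read counts per gene and library, which were used as deposited, and FPKM values, which the authors scaled for length and depth and which were used here to compare genes. For every compound it also held the authors' score against vehicle, which is a linear fold with a sign, and their deposited adjusted p-value, whose test is not named.

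Library totals ran from 55.5 to 77.2 M reads. After edgeR's filterByExpr (minimum count 10, minimum total 15), 17702 of 18668 genes were tested and 966 left out. Counts were scaled by TMM (factors 0.987 to 1.016) and fitted with edgeR's robust quasi-likelihood model over all 12 libraries with group as the term, with Benjamini-Hochberg adjustment over all genes tested and calls at an adjusted p under 0.05. The labels call replicates biologically independent, and p-values measure the spread between these libraries. Counts of the 10 genes ran from 57 to 62943 reads a library, so counting error weighs most on KRT15. The script was tested on simulated data. The genes named beside the 10 were, for each list, up to 4 called genes of smallest p with the degrader and up to 3 called with another compound, from which the text gives a selection made after their values were seen. Of 306 list symbols, 78 were not in the table. The members and lists were chosen with earlier results of these data known. Promoters came from RefSeq (GRCh38.p14) and were not tied to the reads. Alternatives were DESeq2 size factors, upper-quartile scaling, no filter, DESeq2, limma-voom, a fit of only the 2 groups, a replicate block and leaving out each library. The versions used were edgeR 4.0.16, DESeq2 1.42.0 and limma 3.58.1 under R 4.3.3. The gene of the degrader's target is not reported here.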

Additional observations from a re-analysis of the deposited data

How the results depend on the processing

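Among the 10 genes, 9 calls held in all 13 alternatives: KRT8, KRT18, KRT19 and FN1 in degrader against vehicle, FN1 and CD44 in enzalutamide against vehicle, KRT8 in degrader against enzalutamide, and KRT8 and KRT19 in degrader against ligand. The scalings, the filter and the tool reversed no direction among the 10. The number of all genes called in enzalutamide against vehicle was 403 in DESeq2, against 255 in edgeR. In ligand against vehicle it was 121 in DESeq2 and 25 with only the 2 groups in the fit, against 42. With only the 2 groups in the fit, 2 of the 10 were called in degrader against enzalutamide, against 4. The cause of these shifts was not tested. Leaving out 1 library gave 4 to 8 of the 10 called in degrader against vehicle, 2 to 3 in enzalutamide against vehicle, 0 to 1 in ligand against vehicle, 2 to 3 in degrader against enzalutamide and 2 to 4 in degrader against ligand. The lowest of these came without vehicle replicate 2 in degrader against vehicle. Over all genes, leaving out 1 library gave 4580 to 5217 calls in degrader against vehicle, 173 to 218 in enzalutamide against vehicle, 21 to 77 in ligand against vehicle, 4531 to 5210 in degrader against enzalutamide and 3781 to 5408 in degrader against ligand. A few log2 fold changes that were not called changed sign when 1 library was left out. TAGLN in ligand against vehicle ran from -0.07 to 0.06 (above 0 without vehicle replicate 1 or ligand replicate 1). In enzalutamide against vehicle CDH1 ran from -0.03 to 0.01 and KRT15 from -0.05 to 0.11, both turning without enzalutamide replicate 1. In degrader against ligand KRT15 ran from -0.14 to 0.06 (above 0 without ligand replicate 2, and at 0.02 without degrader replicate 3) and ITGA6 from -0.01 (without degrader replicate 2) to 0.17. Same-numbered libraries of compared groups had deviations that correlated at -0.01 to 0.21, not over 0.1 for every pair in any comparison, and the labels name no shared batch, so the numbers were not treated as pairs. As a hint from the data toward shared structure, 9 of 12 libraries correlated best with their own number. With a replicate block, 553 genes and 5 of the 10 were called in enzalutamide against vehicle, and 191 genes in ligand against vehicle. The block added calls of KRT8 (adjusted p = 5.83e-06) and KRT19 (0.00143) with enzalutamide against vehicle, of KRT18 in degrader against enzalutamide (0.0145), and of CDH2 (0.0332) and FN1 (0.0219) in degrader against ligand.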
